A study of Homo sapiens with 6 samples.

Results

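Integrin subunit transcripts were followed in 3 cultures of the human neuroblastoma line SK-N-AS. The set comprised 10 genes, the alpha chains ITGA1, ITGA2, ITGA3, ITGA4, ITGA5, ITGA6 and ITGAV and the beta chains ITGB1, ITGB3 and ITGB5. They were chosen by name, and every probe set that the array's annotation assigns to one of them was taken. This gave 32 of the 54675 probe sets, of which 16 passed the limit on low values, a log2 signal of 5 or higher on 2 or more of the 6 arrays. The probe set of a gene that averaged highest over the 6 arrays leads. In that form 8 of the 10 genes were tested, among 10459 tested genes in all. ITGA4 and ITGB3 did not pass.

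An integrin is a receptor made of an alpha and a beta chain that spans the cell membrane. Outside the cell it holds matrix proteins or counter-receptors on other cells, and inside the cell its tails join the actin cytoskeleton through talin, kindlin and other adaptors. The alpha chain largely sets the ligand. ITGA1 and ITGA2 with ITGB1 bind collagens, ITGA3 and ITGA6 bind laminins, ITGA5 with ITGB1 binds fibronectin, and ITGAV with ITGB3 or ITGB5 binds vitronectin and related proteins that carry the Arg-Gly-Asp sequence. Attachment through integrins keeps adherent cells on a culture dish, and cells grown as spheroids lack that support.

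Each culture was measured on 2 Affymetrix HG-U133 Plus 2.0 arrays. Monolayer cells had no pretreatment and grew attached to the dish. Sphere cells also had no pretreatment and grew as spheroids without serum. iCSC cells were exposed to 2.5 uM 5AdC, an inhibitor of DNA methyltransferases, for 5 days while attached, and afterwards formed spheroids without serum. The series compared these cultures with respect to the stem cell phenotype. The labels name no medium for Monolayer, so the effects of spheroid growth and of the medium cannot be told apart. Levels are log2 signals made by the authors with GCRMA, in which 1 unit is a doubling. The labels do not state whether both arrays of a culture came from separately grown cells, so each p-value reflects the spread between arrays alone, and that spread may be technical.

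The cultures stood far apart before any single gene was considered. Across the tested genes (genes are no independent replicates) Pearson's correlation was at least 0.984 between the arrays of a culture and between 0.729 and 0.859 across cultures. The median change of all genes of a chromosome also differed, from -0.46 (log2) on chromosome 3 to 0.49 on chromosome 12 in Sphere against Monolayer. Of 6 sympathoadrenal neuroblast markers, 2 were at log2 5 or more on both arrays in Monolayer and 5 in each spheroid culture. GATA3 and ISL1 were above the limit on all 6 arrays, PHOX2A and TH were under it on both Monolayer arrays, and DBH was under it on all 6. Of 7 leukocyte markers 6 were under log2 5 on all 6 arrays. The exception was PTPRC, at 11.64 and 11.84 in Monolayer, 12.42 and 12.52 in Sphere, and 2.85 and 2.87 in iCSC. The 7 fibroblast markers had summed log2 levels of 52.2 to 52.9 in Monolayer, 73.1 to 73.7 in Sphere and 64.6 to 64.8 in iCSC. In each of the other lists 1 marker or none was at log2 5 or more on both arrays of a culture: KRT18 of 6 epithelial markers, TEK of 6 endothelial markers, ERBB3 of 3 Schwann cell markers and none of 4 platelet markers. The part of these differences in the integrin results was not tested. In bulk RNA, fewer cells of a type and less RNA per cell cannot be told apart.

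Because iCSC cells had met an inhibitor of DNA methylation, promoter sequences of 3 members are shown with their CpG sites. The windows come from RefSeq on GRCh38.p14, span 300 bases around the annotated start, run 5′ to 3′ on the strand of the gene, and carry each CpG in capitals. ITGA1 (chr5:52787666-52787965, plus strand) and ITGA2 (chr5:52989102-52989401, plus strand) are neighbours on chromosome 5. They were called in opposite directions in Sphere against Monolayer, where neither culture had 5AdC. In the comparisons with iCSC, ITGA1 alone was called against Sphere and ITGA2 alone against Monolayer, each lower in iCSC. ITGA5 (chr12:54419217-54419516, minus strand) rose in both spheroid cultures against Monolayer.

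ITGA1: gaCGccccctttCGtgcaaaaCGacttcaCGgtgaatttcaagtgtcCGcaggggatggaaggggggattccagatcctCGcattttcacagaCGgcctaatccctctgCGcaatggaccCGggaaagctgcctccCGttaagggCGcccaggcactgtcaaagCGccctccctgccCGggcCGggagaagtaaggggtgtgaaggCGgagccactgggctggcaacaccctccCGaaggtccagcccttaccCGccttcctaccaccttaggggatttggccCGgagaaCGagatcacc

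ITGA2: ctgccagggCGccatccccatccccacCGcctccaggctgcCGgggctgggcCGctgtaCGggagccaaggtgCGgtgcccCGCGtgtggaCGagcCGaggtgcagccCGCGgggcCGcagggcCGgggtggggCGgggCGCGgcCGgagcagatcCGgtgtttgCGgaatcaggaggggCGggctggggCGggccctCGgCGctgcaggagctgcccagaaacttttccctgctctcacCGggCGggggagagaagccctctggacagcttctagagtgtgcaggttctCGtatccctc

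ITGA5: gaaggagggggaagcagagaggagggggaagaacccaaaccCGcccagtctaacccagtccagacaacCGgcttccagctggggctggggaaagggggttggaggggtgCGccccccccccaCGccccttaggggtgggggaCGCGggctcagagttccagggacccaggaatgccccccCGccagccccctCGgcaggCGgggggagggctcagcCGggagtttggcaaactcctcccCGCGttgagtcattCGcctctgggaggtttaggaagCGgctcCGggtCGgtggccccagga

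The ITGA1 window held 19 CpG sites, the ITGA2 window 27 and the ITGA5 window 16, and the median over 35116 windows of all genes was 14. Thus 57.1%, 71.84% and 52.51% of all windows had fewer CpG sites than those of ITGA1, ITGA2 and ITGA5. Windows were given for 8 of the 10 members (all but ITGA3 and ITGB3), 13 in all. On either strand, the ITGA2 window held the GC box GGGCGG 4 times and the ITGA5 window held it once, a motif present in 44.95% of all windows. The ITGA5 window also held the AP-1 motif TGANTCA, starting at base 245 of the window. That motif was in 7.71% of all windows and in 1 of the 13 member windows. The TEAD motif GGAATG was in the ITGA5 window too, against 14.03% of all windows. None of the searched motifs, TATAAA included, was in the ITGA1 window. TATAAA was in 11.53% of all windows and in 2 of the 13 member windows. These matches describe letters, and no methylation or binding was measured in these samples.

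In Sphere against Monolayer, ITGA1 and ITGA5 rose, ITGA2, ITGA3, ITGA6, ITGB1 and ITGB5 fell, and ITGAV was not called. With limma and Benjamini-Hochberg adjustment over all tested genes, 7 of the 8 tested members were called (adjusted p under 0.05), 2 higher and 5 lower. Of all tested genes 59.0% were called in this comparison, 30.0% higher and 29.1% lower, so a call among the members was set against a background in which most genes moved. The median log2 fold change of the 8 members was -0.68, beside 0.01 over all tested genes. In iCSC against Sphere, 2 of 8 members were called, both lower (ITGA1 and ITGA6), where 38.5% of all genes were called, 19.3% higher and 19.2% lower. In iCSC against Monolayer, 6 of 8 were called, ITGA5 and ITGAV higher and ITGA2, ITGA3, ITGA6 and ITGB5 lower, where 55.6% of all genes were called, 29.0% higher and 26.6% lower. The members' medians were 0.24 for iCSC against Sphere, and -0.97 where Monolayer was the reference. The 3 comparisons share arrays, so their values stand side by side and do not support each other.

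**Figure D1:**
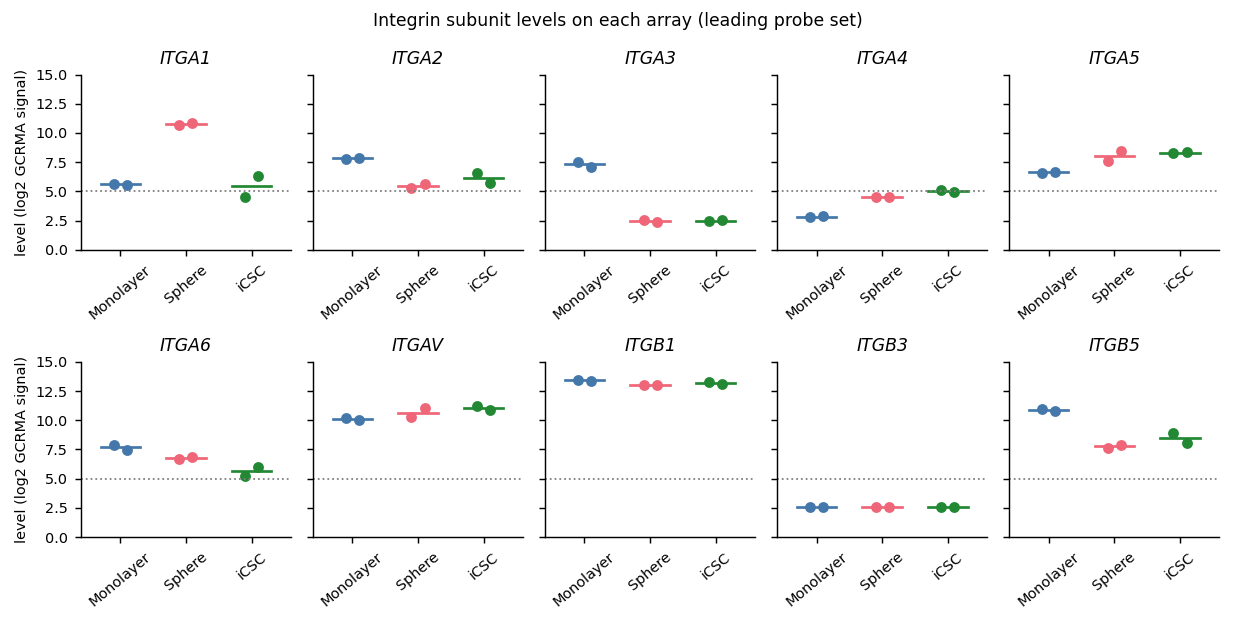
Level of each of the 10 integrin subunits on every array (y axis, log2 GCRMA signal of the leading probe set) in Monolayer, Sphere and iCSC (x axis); each point is 1 array, the bar is the mean of 2 arrays and the dotted line is log2 5. ITGA1 stands at 10.68 and 10.89 on the Sphere arrays and at 6.33 or less on the others, ITGA3 is above the line in Monolayer only, and ITGB3 lies under it throughout.

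**Figure D2:**
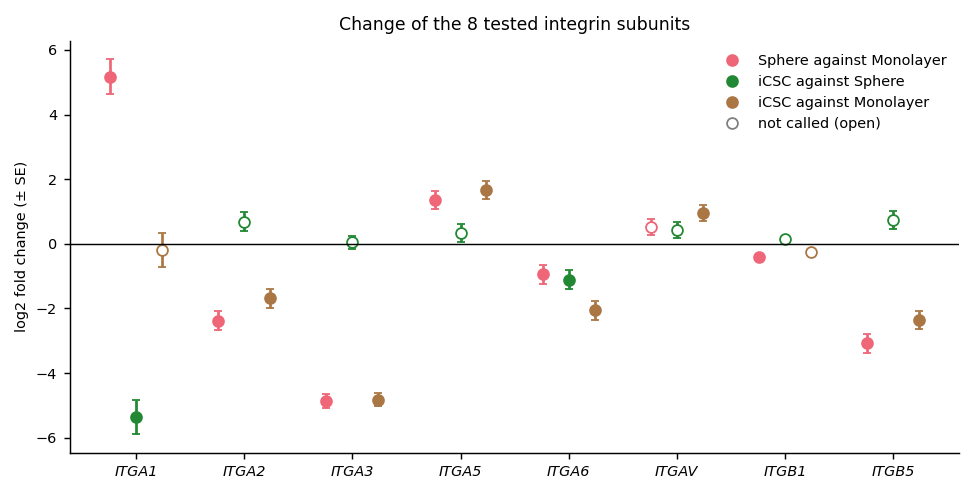
Log2 fold change with its standard error (SE, bars) for the 8 tested integrin subunits in the 3 comparisons of cultures; filled points are called at an adjusted p under 0.05 and open points are not. ITGA1 is called in opposite directions in Sphere against Monolayer and iCSC against Sphere, and ITGA2, ITGA3, ITGA6 and ITGB5 lie below 0 in both comparisons against Monolayer.

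Of the collagen receptors, ITGA1 had the widest range of culture means among the tested members, with its peak in Sphere. ITGA1 forms with ITGB1 a receptor for collagen IV and fibrillar collagens and marks, among others, smooth muscle and stromal cells. It was at 5.66 and 5.55 on the Monolayer arrays, 10.68 and 10.89 on the Sphere arrays, and 4.52 and 6.33 on the iCSC arrays. The Sphere arrays were far above the other 4, and the iCSC arrays, 1 of them under log2 5, lay on either side of the Monolayer arrays. Sphere exceeded Monolayer by 5.18 ± 0.53 (log2, SE), or 36.2-fold (adjusted p = 0.000277), and iCSC against Sphere gave -5.36 ± 0.53 (adjusted p = 0.000476). Both ITGA1 calls held under all 17 alternatives, with adjusted p of 0.0215 or less and 0.0352 or less. For iCSC against Monolayer the difference of -0.18 ± 0.53 was not called (adjusted p = 0.802). That value rests on the spread of the iCSC arrays: it was 0.73 without iCSC replicate 1 (called, adjusted p = 0.0212) and -1.09 without iCSC replicate 2 (called, adjusted p = 0.00594).

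The other probe sets of ITGA1 also had their highest mean in Sphere. A second probe set averaged 3.17 in Monolayer, 7.03 in Sphere and 2.73 in iCSC. It was above the limit in Sphere alone, so a peak there was built into its entry. The third averaged 2.31, 5.20 and 2.25 and passed on 1 array. For the leading probe set the SD over 2 arrays was 0.08 in Monolayer, 0.15 in Sphere and 1.28 in iCSC. The Sphere level stood apart from the other cultures beyond that spread, and the levels of iCSC and Monolayer did not differ beyond it. Of the 7 fibroblast markers, DCN, LUM and PDGFRB also had their highest mean in Sphere, PDGFRA and COL3A1 had it in Monolayer, and COL1A1 and THY1 had it in iCSC. Their part in the ITGA1 result was not tested.

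ITGA2 encodes the other collagen-binding alpha chain of the set, known from platelets and epithelia. Its arrays read 7.80 and 7.85 in Monolayer, 5.26 and 5.63 in Sphere, and 6.55 and 5.72 in iCSC. All 4 spheroid arrays lay below the Monolayer arrays, and the iCSC arrays lay above the Sphere arrays by a small margin. Sphere against Monolayer gave -2.38 ± 0.30 (adjusted p = 0.000672), 5.20-fold lower, and iCSC against Monolayer gave -1.69 ± 0.30 (adjusted p = 0.00341), a call lost without variance moderation (adjusted p = 0.0506). The step from Sphere to iCSC, 0.69 ± 0.30, was not called (adjusted p = 0.114), but it was called with chromosome medians subtracted (adjusted p = 0.0436) and without iCSC replicate 2 (adjusted p = 0.0159). Both passing probe sets of ITGA2 had lower means in both spheroid cultures than in Monolayer. The second averaged 6.02 in Monolayer, 4.31 in Sphere and 4.37 in iCSC. It passed the limit through Monolayer alone, so its fall was built into its entry.

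ITGA1 and ITGA2 lie next to each other on chromosome 5, with PELO, a gene for a factor that rescues stalled ribosomes, inside the span of ITGA1. The genes around them were looked at after these values were seen. Of the 10 tested neighbours, 3 rose and 4 fell in Sphere against Monolayer, beside 59.0% of all genes called. On the side of ITGA1, ISL1 rose by 1.34. PARP8 and EMB, under log2 5 in Monolayer and tested through the spheroid cultures alone, were at least 5.05-fold and at least 1.44-fold higher. On the side of ITGA2, MOCS2 changed by -0.79, and FST, under log2 5 in Sphere and tested through Monolayer alone, was at least 21.5-fold lower (adjusted p of 0.00121 or less for each of the 5). The other falls, also on the side of ITGA2, were NDUFS4 (-0.32) and SNX18 (-1.82). PELO, between ITGA1 and ITGA2, gave -0.25 and was not called (adjusted p = 0.246). Also not called were MRPS30 on the side of ITGA1, at 0.12 (adjusted p = 0.558), and ARL15 on the side of ITGA2, at 0.25 (adjusted p = 0.325). In iCSC against Sphere, 5 neighbours fell, ISL1 (-2.48), PARP8 (-1.74), PELO (-1.06), MRPS30 (-1.05) and MOCS2 (-0.59), and 1 rose, EMB, by 1.83. Of all tested genes 38.5% were called there. The median change over the 496 tested genes of chromosome 5 was -0.06 in Sphere against Monolayer and -0.30 in iCSC against Sphere.

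**Figure D3:**
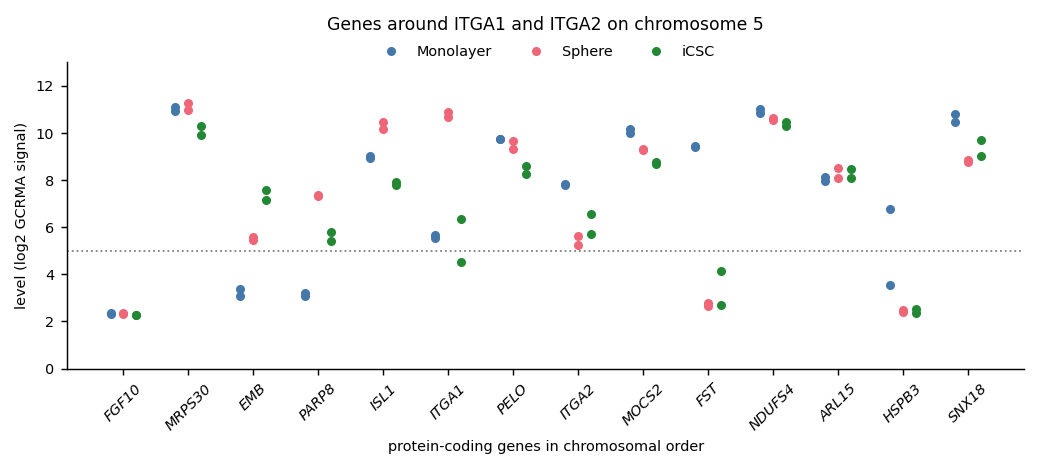
Levels on each array (y axis, log2 GCRMA signal, leading probe set) of the genes around ITGA1 and ITGA2, placed in their order along chromosome 5 without distances (x axis); each point is 1 array, colours are the 3 cultures and the dotted line is log2 5. EMB, PARP8, ISL1 and ITGA1 have their Sphere points above their Monolayer points, and ITGA2, MOCS2 and FST have them below.

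Of the laminin receptors, ITGA3 fell below the limit in both spheroid cultures. ITGA3 pairs with ITGB1 and binds laminins of basement membranes. It was at 7.55 and 7.11 in Monolayer, 2.57 and 2.36 in Sphere, and 2.46 and 2.55 in iCSC. The spheroid arrays all lay in the band of unexpressed probe sets, so only a lower bound on the fold can be given. ITGA3 was at least 5.02-fold lower in Sphere (adjusted p = 5.73e-06) and in iCSC (adjusted p = 8.69e-06) than in Monolayer, each bound taken with values under 5 set to 5. It had 1 probe set and passed the limit through Monolayer alone, so a fall from Monolayer was built into its entry. Between iCSC and Sphere the difference was 0.04 ± 0.21 (adjusted p = 0.897), with both cultures under the limit.

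ITGA6, the laminin receptor chain used as a marker of several epithelial and neural stem cell populations, was lower in both spheroid cultures than in Monolayer. Its arrays read 7.90 and 7.48 in Monolayer, 6.68 and 6.81 in Sphere, and 5.25 and 6.03 in iCSC. No culture overlapped another. The changes were -0.94 ± 0.29 in Sphere against Monolayer (adjusted p = 0.0292), -1.11 ± 0.29 in iCSC against Sphere (adjusted p = 0.0243) and -2.06 ± 0.29 in iCSC against Monolayer (adjusted p = 0.00134). The last call held under all 17 alternatives. The first was lost under 6 of them (adjusted p up to 0.168), among them the removal of either Monolayer or either Sphere array. The second was lost under 5 (adjusted p up to 0.133), among them the removal of either Sphere array or of iCSC replicate 1. The second ITGA6 probe set averaged 6.30, 5.13 and 4.33 in the same order of cultures.

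Of the fibronectin receptors, ITGA5 rose in both spheroid cultures. ITGA5 with ITGB1 is the classical receptor that assembles fibronectin into fibrils. It was at 6.60 and 6.68 in Monolayer, 7.57 and 8.42 in Sphere, and 8.27 and 8.38 in iCSC. Both Monolayer arrays were below the other 4, and the iCSC arrays fell within the range of the Sphere arrays. Sphere exceeded Monolayer by 1.35 ± 0.28 (2.55-fold, adjusted p = 0.00577), a call lost without variance moderation (adjusted p = 0.0632). iCSC exceeded Monolayer by 1.68 ± 0.28 (3.20-fold, adjusted p = 0.00261). The genes of chromosome 12, where ITGA5 lies, had a median change of 0.49 in Sphere and 0.54 in iCSC against Monolayer, and after subtraction of the chromosome medians ITGA5 gave 0.86 (adjusted p = 0.0332) and 1.14 (adjusted p = 0.0128). In iCSC against Sphere ITGA5 gave 0.33 ± 0.28 (adjusted p = 0.398), and without Sphere replicate 2 it was called (adjusted p = 0.0444).

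ITGA4, whose product binds fibronectin and VCAM1 and serves migrating leukocytes and neural crest cells, reached the limit on 1 iCSC array. Its leading probe set read 2.79 and 2.85 in Monolayer, 4.53 and 4.54 in Sphere, and 5.16 and 4.94 in iCSC. The Monolayer arrays lay in the unexpressed band and the spheroid arrays near log2 5, which 1 of 6 reached, so ITGA4 was not among the tested genes and no fold is given. With the filter removed, ITGA4 was called higher in both spheroid cultures than in Monolayer (adjusted p = 0.000389 and 0.000195) and also higher in iCSC when set against Sphere (adjusted p = 0.0454). A second ITGA4 probe set averaged 2.81, 4.15 and 4.24, and the 2 others stayed between 2.26 and 3.21 in every culture mean.

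Of the chains for vitronectin and other Arg-Gly-Asp ligands, ITGAV rose in iCSC against Monolayer, and ITGB5 fell in both spheroid cultures. ITGAV was at 10.21 and 10.04 in Monolayer, 10.26 and 11.04 in Sphere, and 11.26 and 10.91 in iCSC. The Sphere arrays spanned most of that range, and both iCSC arrays were above both Monolayer arrays. iCSC exceeded Monolayer by 0.96 ± 0.26 (1.94-fold, adjusted p = 0.0187). The call was lost under 6 of 17 alternatives, among them the removal of either Monolayer array (1.04 and 0.87) or of iCSC replicate 1 (0.79). The genes of chromosome 2, which holds ITGAV, had a median change of 0.27 in iCSC against Monolayer. With chromosome medians subtracted ITGAV gave 0.66 and was not called (adjusted p = 0.0651). Sphere against Monolayer gave 0.53 ± 0.26 and was not called (adjusted p = 0.122), except without Sphere replicate 1 (adjusted p = 0.0148). iCSC against Sphere gave 0.43 ± 0.26 (adjusted p = 0.231), and it was called without Sphere replicate 2 (adjusted p = 0.0341).

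ITGB5, the beta chain that joins ITGAV in a vitronectin receptor, fell in both spheroid cultures. It read 10.93 and 10.79 in Monolayer, 7.63 and 7.92 in Sphere, and 8.94 and 8.07 in iCSC. Monolayer stood clear above the spheroid cultures, and the iCSC arrays were both above the Sphere arrays. Sphere against Monolayer gave -3.08 ± 0.28, 8.48-fold lower (adjusted p = 0.000167), and iCSC against Monolayer gave -2.35 ± 0.28, 5.10-fold lower (adjusted p = 0.000666). All 4 ITGB5 probe sets had lower means in both spheroid cultures than in Monolayer. The lowest of them averaged 6.48 in Monolayer, 2.92 in Sphere and 3.61 in iCSC. It passed the limit through Monolayer alone, so its fall was built into its entry. A further probe set averaged 4.22 in Sphere, also under the limit. The call in iCSC against Monolayer was lost without probe sets that may match several transcripts (adjusted p = 0.206), where another probe set leads with 6.71 and 6.83 in Monolayer against 6.77 and 5.36 in iCSC. iCSC against Sphere gave 0.73 ± 0.28 (adjusted p = 0.0836), and it was called without iCSC replicate 2 (adjusted p = 0.00541). The genes of chromosome 3, which holds ITGB5, had a median change of -0.46 in Sphere against Monolayer, and ITGB5 gave -2.63 once it was subtracted (adjusted p = 0.000298).

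ITGB3, the other partner of ITGAV and a chain of the platelet fibrinogen receptor, was under log2 5 on all 6 arrays in all 7 of its probe sets, which lay between 1.65 and 2.57. It was not tested, and no order of the cultures can be read from such values. With the filter removed it was not called in any comparison (adjusted p between 0.665 and 0.925). ITGA2B, the alpha chain of the platelet receptor, lay under the limit on all arrays too.

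ITGB1, the beta chain that each alpha chain of the set can join, had the narrowest range of culture means among the 8 tested members. It read 13.48 and 13.40 in Monolayer, 13.05 and 13.02 in Sphere, and 13.30 and 13.09 in iCSC. The Sphere arrays were lowest, the iCSC arrays lay between, and no cultures overlapped. Sphere against Monolayer gave -0.41 ± 0.09, 1.33-fold lower (adjusted p = 0.00729), a call lost without variance moderation (adjusted p = 0.0504) and without Monolayer replicate 1 (adjusted p = 0.0651). iCSC against Sphere gave 0.16 ± 0.09 (adjusted p = 0.191), and it was called without iCSC replicate 2 (adjusted p = 0.0417). In iCSC against Monolayer, -0.24 ± 0.09 missed the threshold (adjusted p = 0.0532). ITGB1 passed it under 7 of 17 alternatives, among them the fit with a replicate block (adjusted p = 0.0335). It also passed without probe sets that may match several transcripts, where another probe set leads (adjusted p = 0.0055), and with the mean of its probe sets (adjusted p = 0.00771). The other 2 expressed probe sets of ITGB1 gave -0.71 and -0.74 in Sphere against Monolayer, and -0.46 and -0.54 in iCSC against Monolayer. The remaining 4 of its 7 probe sets were under the limit on every array.

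**Figure D4:**
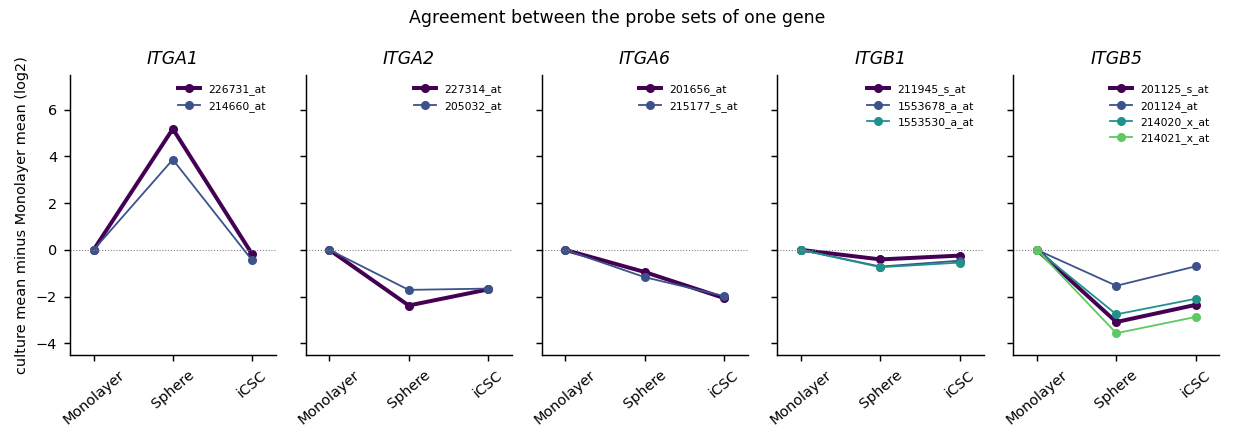
Mean of each culture minus the Monolayer mean (y axis, log2) for every passing probe set of the 5 members with several, in Monolayer, Sphere and iCSC (x axis); the thick line is the leading probe set. Within ITGA1, ITGA2, ITGA6, ITGB1 and ITGB5 the means of the probe sets differ in the same direction in each comparison, with sizes that vary, as in ITGB5, where Sphere lies from -1.53 to -3.56. Some means lie under log2 5, where levels carry no order, so their agreement there says nothing. Examples are the second ITGA1 probe set in Monolayer and iCSC, and the second ITGA2 probe set in Sphere and iCSC. The ITGB5 probe set at -3.56 averages 2.92 in Sphere, so the size of its fall is not measured.

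By the root-mean-square difference of log2 values over the 6 arrays, each gene centred on its own mean, the 3 tested genes closest to each of the 4 members with the widest range were listed. For ITGA1 they were MIR7-3HG (0.40), CHST1 (0.44) and ZNF804A (0.47), each high in Sphere, with ZNF804A at 5.29, 10.43 and 4.53 in Monolayer, Sphere and iCSC. For ITGA3 they were COL4A6 (0.09), CDC42EP1 (0.11) and TM4SF18 (0.14). COL4A6, a chain of basement membrane collagen IV, averaged 6.96 in Monolayer and 2.18 and 2.16 in the spheroid cultures. For ITGB5 they were GPCPD1 (0.09), PXK (0.18) and SLC35G1 (0.21), and for ITGA2 they were SERTAD4-AS1 (0.10), PLPP3 (0.17) and SLCO3A1 (0.17). The 6 points come from 3 cultures, so such closeness describes 3 levels and their spread.

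Among the 16 other integrin genes, 15 had a probe set of their own, 5 were tested and 10 were under log2 5 on all arrays. Those under the limit included the leukocyte beta chain ITGB2 with its alpha chains ITGAL, ITGAM and ITGAX, and ITGB4, the hemidesmosome partner of ITGA6. ITGA9, which binds tenascin-C and osteopontin with ITGB1, read 9.85 and 9.72 in Monolayer, 3.48 and 4.28 in Sphere, and 2.96 and 2.56 in iCSC. The spheroid arrays were all under the limit, so ITGA9 was at least 27.6-fold lower in Sphere (adjusted p = 1.13e-05) and in iCSC (adjusted p = 7.71e-06) than in Monolayer, and it entered the test through Monolayer alone. ITGA7, a laminin receptor chain of muscle, passed through iCSC alone, at 5.86 and 5.67 there against 2.34 and 2.19 in Monolayer and 3.32 and 3.37 in Sphere, at least 1.70-fold higher (adjusted p = 1.45e-05 and 0.000119). ITGAE dipped in Sphere, by -0.74 ± 0.14 against Monolayer (adjusted p = 0.00416), and iCSC exceeded Sphere by 0.77 ± 0.14 (adjusted p = 0.00634), a call lost without variance moderation (adjusted p = 0.0551). ITGB8 was not called in any comparison, with iCSC arrays at 7.91 and 6.40. ITGA8 averaged 5.10 in Monolayer and 2.77 and 2.61 in the spheroid cultures, at least 1.07-fold lower, and the floor at log2 5 removed both calls (adjusted p = 0.512 and 0.519).

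The ligands were counted from lists of the matrix genes that integrins bind. Of 13 tested ligands other than laminins and collagens, 1 rose and 10 fell in Sphere against Monolayer, with a median log2 fold change of -3.51 beside 0.01 over all tested genes, of which 59.0% were called. The counts against Monolayer were the same in iCSC, 1 and 10, with a median of -3.37, beside 55.6% of all genes called. In iCSC against Sphere 2 were higher and 4 lower, with a median of -0.30, beside 38.5% of all genes called. VCAM1, the counter-receptor of ITGA4, was the gene that rose, with 7.32 ± 0.39 (SD, n = 2) in Monolayer, 11.32 ± 0.02 in Sphere and 10.74 ± 0.72 in iCSC (limma, adjusted p = 0.000117 and 0.000303). POSTN, a matricellular ligand of ITGAV receptors, fell from 11.75 ± 0.12 to 2.46 ± 0.03 and 2.43 ± 0.01, at least 108-fold in both. POSTN and CCN2 were tested through Monolayer alone. CCN2 and CCN1, secreted ligands of ITGAV receptors, fell as well, CCN2 at least 45.3-fold in both and CCN1 with log2 fold changes of -7.59 in Sphere and -7.86 in iCSC. FN1, the ligand of ITGA5, rose from Sphere to iCSC by 1.87 ± 0.48 (adjusted p = 0.0224), a call lost under 6 alternatives (adjusted p up to 0.154), among them the removal of either Monolayer or either Sphere array.

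Laminin and collagen genes split. In Sphere against Monolayer, 3 of 7 tested laminin and nidogen genes rose and 4 fell. LAMC1 and LAMB1, chains of many laminins, had log2 fold changes of -1.51 and -1.61, and the nidogen NID2, tested through Sphere alone like LAMA4, was at least 4.93-fold higher (adjusted p = 3.13e-05). The 7 calls stood beside 59.0% of all genes called. In iCSC against Sphere 2 rose and 2 fell, LAMA5 by 1.72 upward (adjusted p = 0.000491) and LAMA4, under the limit in iCSC, downward (adjusted p = 3.32e-05). LAMA5 averaged 11.15 in Monolayer, 9.27 in Sphere and 10.99 in iCSC, with a log2 fold change of -1.88 in Sphere against Monolayer. In iCSC against Monolayer 2 were called higher and 3 lower. One of the 2 was NID2, which is under log2 5 in both cultures and lost its call with values floored at 5 (adjusted p = 1). Of 12 tested collagen genes, 3 rose and 8 fell in Sphere against Monolayer, 5 rose and 3 fell in iCSC against Sphere, and 4 rose and 8 fell in iCSC against Monolayer, beside 59.0%, 38.5% and 55.6% of all genes called. COL1A2, a chain of collagen I, read 3.44 and 3.84 in Monolayer, 4.99 and 4.22 in Sphere, and 13.01 and 12.02 in iCSC. The iCSC arrays alone were above the limit, so that a rise there was built into its entry, and they were at least 183-fold higher than either other culture (adjusted p = 9.4e-06 and 2.43e-05). COL6A3, tested through the spheroid cultures alone, rose in steps, from 1.94 ± 0.03 to 7.22 ± 0.22 and 11.24 ± 0.17. Against Monolayer it was at least 4.66-fold higher in Sphere and at least 75.7-fold higher in iCSC, directions built into its entry. COL5A1 fell in Sphere against Monolayer (-3.87). COL4A6, tested through Monolayer alone, was at least 3.90-fold lower there.

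Inside the cell, talin, kindlin and other proteins bind the integrin tails. Of 8 tested genes for them, 3 rose and 2 fell in Sphere against Monolayer, 2 fell in iCSC against Sphere, and 3 rose and 3 fell in iCSC against Monolayer, with medians of 0.16, 0.02 and -0.09. Over all genes 59.0%, 38.5% and 55.6% were called. FERMT3, the kindlin of blood cells, had the largest change among them, at 2.24 ± 0.02 in Monolayer, 6.39 ± 0.93 in Sphere and 2.28 ± 0.03 in iCSC. It was at least 2.63-fold higher in Sphere than in Monolayer (adjusted p = 0.000217) and at least 2.63-fold lower in iCSC than in Sphere (adjusted p = 0.000454). It was tested through Sphere alone, so both directions were built into its entry. FERMT2, the kindlin of most adherent cells, gave 0.50 in Sphere against Monolayer (adjusted p = 0.0101) and -0.95 in iCSC against Sphere (adjusted p = 0.0012). FERMT2 lost the first call under 4 alternatives, among them the removal of Monolayer replicate 1 or of either Sphere array (adjusted p up to 0.0825), and the second with chromosome medians subtracted (adjusted p = 0.124). PTPRC, given above, was high in Monolayer as well as Sphere and under the limit in iCSC, so it shared with FERMT3 the fall from Sphere to iCSC. Its part in that fall was not tested.

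Of 21 tested focal adhesion genes, 4 rose and 8 fell in Sphere against Monolayer (median -0.25), 8 rose and 3 fell in iCSC against Sphere (median 0.35), and 5 rose and 7 fell in iCSC against Monolayer (median -0.06). These counts stood beside 59.0%, 38.5% and 55.6% of all genes called, so the first and the third were near the background. TNS1, a tensin that binds beta chain tails, read 2.74 and 3.09 in Monolayer, 8.50 and 8.58 in Sphere, and 10.21 and 9.56 in iCSC. It was tested through the spheroid cultures alone, so a rise from Monolayer was built into its entry. It was at least 11.6-fold higher in Sphere than in Monolayer (adjusted p = 6.77e-06) and iCSC exceeded Sphere by 1.35 ± 0.25 (adjusted p = 0.0071), a call lost without variance moderation (adjusted p = 0.0734) and without Sphere replicate 1 (adjusted p = 0.0544). FYN, a kinase of the Src family, rose by 3.68 ± 0.14 in Sphere against Monolayer, and by 3.50 ± 0.14 in iCSC. NEDD9, a docking protein for focal adhesion kinase, read 10.99 and 11.08 in Monolayer and between 2.62 and 2.72 on the 4 spheroid arrays, at least 65.5-fold lower, and was tested through Monolayer alone. VCL, which links talin to actin, fell by 2.39 in Sphere and by 1.95 in iCSC against Monolayer.

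Of 13 tested membrane partners of integrins, 3 rose and 6 fell in Sphere against Monolayer, 3 rose and 3 fell in iCSC against Sphere, and 2 rose and 6 fell in iCSC against Monolayer, beside 59.0%, 38.5% and 55.6% of all genes called. CAV1, the coat protein of caveolae, read 10.95 and 10.01 in Monolayer and between 2.57 and 2.61 on the spheroid arrays, at least 44.7-fold lower, and was tested through Monolayer alone. SDC1, a heparan sulfate proteoglycan that cooperates with ITGAV receptors, fell from 10.09 ± 0.27 in Monolayer to 5.31 ± 0.21 in Sphere and stood at 9.33 ± 0.11 in iCSC. The iCSC level was 4.02 ± 0.19 above Sphere (adjusted p = 1.89e-05). CD9, a tetraspanin that binds ITGB1 receptors, rose in iCSC by 1.96 ± 0.20 against Sphere (adjusted p = 0.000506) and by 2.47 ± 0.20 against Monolayer (adjusted p = 0.000114).

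**Figure D5:**
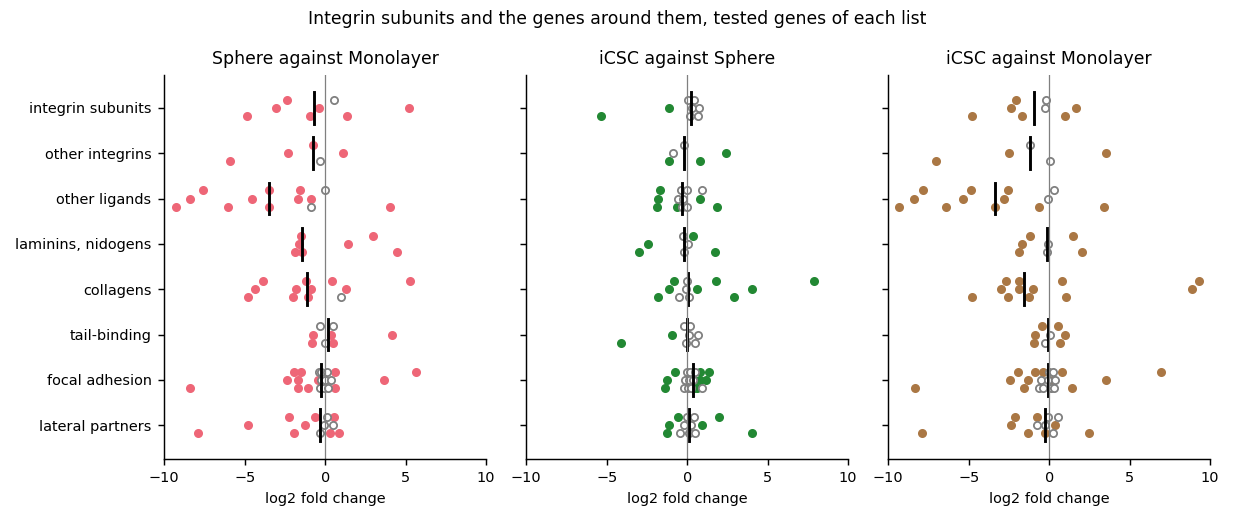
Log2 fold change (x axis) of every tested gene of the integrin subunits and of the 7 lists around them (y axis), in the 3 comparisons; filled points are called at an adjusted p under 0.05, open points are not, and the black bar is the median of the list. The list of ligands other than laminins and collagens has its median at -3.51 in Sphere and -3.37 in iCSC against Monolayer, and the integrin subunits at -0.68 and -0.97.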

How the data were processed

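RNeasy columns yielded the total RNA, of which 200 ng were labelled with biotin by MessageAmp Premier, per the labels' protocols. The deposited values are log2 signals, 1 for each probe set on each array. The authors made them with GCRMA, per the submitters' processing notes, which name Partek too. No version, setting or role of Partek is given in the sources used here. GCRMA draws unexpressed probe sets into a narrow low band, so fold changes that start there overstate what was measured.

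Samples were grouped by title, culture and pretreatment labels. The 41091 probe sets with a single symbol were used (1801 had several, 11721 none, 62 were controls). The platform's symbols were updated against RefSeq, with 41043 matches. Probe sets at log2 5 or more on at least 2 of 6 arrays entered, and the one with the highest mean represented each gene. Array medians were 2.78 to 2.83, and 34.3% to 35.2% of probe sets reached log2 5. The number of arrays limits the precision. The difference between 3' and 5' ACTB probe sets was 1.47 and 1.40 in iCSC and 1.16 to 1.25 elsewhere.

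A mean per culture was fitted with limma 3.58.1 in R 4.3.3 to all 6 arrays, with empirical Bayes moderation, a mean-variance trend and 3 residual degrees of freedom, tested on both sides and adjusted by Benjamini-Hochberg over 10459 genes. The model was tested on simulated data. Where a culture was under log2 5 on both arrays, the fold is a bound with lower values set to 5, and its p tests the values as deposited. Figures were drawn with matplotlib 3.10.9. The members, lists and tests were chosen with earlier results of these data known. Named genes were all members, all tested other integrins, up to 3 called genes with the largest rises and 3 with the largest falls per list and comparison, and the 3 genes closest to each of 4 members, and the text gives part of them. Alternatives changed the filter, floor, scaling, probe set choice, variance model, replicate block and arrays included.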

Additional observations from a re-analysis of the deposited data

How the results depend on the processing

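Over 17 alternatives the 24 member results gave 405 values, of which 367 kept their side of the threshold. Another 22 lost the call, 15 gained one and 1 was called with the reverse sign, and 9 results never changed side. A sign that changed between uncalled values was not counted as a reversal. Such changes occurred in ITGA1 for iCSC against Monolayer, and in ITGA3 and ITGA5 for iCSC against Sphere. ITGA3 had no value without probe sets that may match several transcripts. Without variance moderation, 4 members were called in Sphere against Monolayer and 1 in iCSC against Sphere, where 2281 genes were called in all. Leaving out 1 array at a time gave 1 to 5 members and 2574 to 3883 genes called in iCSC against Sphere, lowest without Sphere replicate 1 (1 member, also without iCSC replicate 1) and 5 members without iCSC replicate 2, 5 to 7 members in each comparison against Monolayer, and -1.09 to 0.73 for ITGA1 in iCSC against Monolayer. Deviations of same-numbered arrays correlated at 0.02 between Monolayer and Sphere, -0.05 between Monolayer and iCSC, and 0.17 between Sphere and iCSC. Such values cannot settle whether replicate numbers pair the arrays, since pairing need not leave a shared deviation. The fit with the replicate block called 7, 2 and 7 members in Sphere against Monolayer, iCSC against Sphere and iCSC against Monolayer, against 7, 2 and 6 without it. The scalings tried moved the median of all genes by less than 0.05. With 2 arrays a culture, small changes such as those of ITGB1 and ITGAV are at the edge of what could be called, and levels under log2 5 carry no order.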
